A study of Mus musculus with 6 samples.

Results

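The transcripts described here are those of 43 regulators of chromatin: subunits of the Polycomb repressive complexes, the Polycomb deubiquitinase, trithorax-type proteins that oppose them, the enzymes that write and remove DNA methylation, and the insulator protein Ctcf. They were chosen by name, and 41 of them were measured among 19938 genes. A member was measured where the array annotation gave a probe set with that 1 gene symbol, and where several probe sets did, the one with the highest mean over the 6 arrays was taken. Cbx6 shared its probe set with other genes and Ash1l had no listed probe set, so that neither is described.

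The cells were mouse embryonic fibroblasts (MEFs), either wild-type (WT, 3 arrays) or knockout for the histone variant H2AX (KO, 3 arrays), kept in the same serum-supplemented medium without treatment. No source used here names the strain, sex, age or passage of the cells, or the number of embryos or lines behind each genotype, so that p-values measure only the spread between these arrays, which may be technical. The targeted transcript, H2ax, measured 9.05 ± 0.12 in WT and 7.71 ± 0.05 in KO cells in log2 value (SD, n = 3 each). Where its probes lie relative to the deletion is not given in the sources used here. Of 13 fibroblast markers, 12 lay above the median of all gene means, and their mean log2 value was between 9.90 and 10.1 on each of the 6 arrays. Single markers differed widely, however, with 5 higher and 6 lower in KO cells, or 84.6% called against 53.1% of all genes above the median mean, among them Thy1 (log2 fold change 4.03) and Dcn (log2 fold change -2.15). With each chromosome centred, as described further on, 5 were higher and 3 lower. The 7 epithelial markers averaged 5.57 to 5.72, the 6 endothelial markers 4.91 to 5.16 and the 7 leukocyte markers 5.42 to 5.53. In KO cells 2 endothelial markers were lower, or 33.3% called, and 1 leukocyte marker was higher and 1 lower, or 28.6% called. Of all genes 33.4% were called. Most markers of both lists lay below the median mean, and no share was computed for such genes. The 7 pluripotency markers averaged 5.33 to 5.41 in WT and 5.46 to 5.52 in KO cells, with 2 higher. That was 28.6% called, against 33.4% of all genes. The 6 neural markers averaged 6.05 to 6.14 in WT and 6.35 to 6.43 in KO cells. Of these, Map2 rose by 1.73 and Tubb3 by 0.83, and Nes fell by 0.64, or 50% called against 33.4% of all genes. The Y-linked genes Uty and Kdm5d lay at 8.08 and 7.80 in WT and at 4.35 and 4.92 in KO cells, so that the presence of Y-linked transcripts differed along with genotype and the effects of these cannot be told apart. Within each genotype 1 array lay low: of the genes above the median mean, 58.8% had their lowest KO value on replicate 2 and 67.9% their lowest WT value on replicate 1, as did 23 and 26 of the members described here.

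Polycomb proteins keep developmental genes silent. Polycomb repressive complex 2 (PRC2) methylates lysine 27 of histone H3 through Ezh1 or Ezh2, and Polycomb repressive complex 1 (PRC1) ubiquitinates histone H2A through Ring1 or Rnf2, bound to a PCGF protein. Trithorax-type complexes methylate lysine 4 of histone H3 and keep genes open, DNA methyltransferases (Dnmt) add a methyl group to cytosine in CpG dinucleotides, and TET dioxygenases oxidize it as a step of its removal. In fibroblasts these systems are best known for holding positional identity genes and the senescence locus Cdkn2a in place.

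The TET genes and the pair Rnf2 and Ring1 carried the widest differences between paralogs. Their promoters are shown for this reason, as the 250 bases before the RefSeq transcription start (GRCm38.p6, all on the minus strand, 5′ to 3′), with CpG dinucleotides in capitals. Tet1 lies at chr10:62887325-62887574, Tet2 at chr3:133544391-133544640, Tet3 at chr6:83441679-83441928, Rnf2 at chr1:151500992-151501241 and Ring1 at chr17:34024681-34024930.
Tet1: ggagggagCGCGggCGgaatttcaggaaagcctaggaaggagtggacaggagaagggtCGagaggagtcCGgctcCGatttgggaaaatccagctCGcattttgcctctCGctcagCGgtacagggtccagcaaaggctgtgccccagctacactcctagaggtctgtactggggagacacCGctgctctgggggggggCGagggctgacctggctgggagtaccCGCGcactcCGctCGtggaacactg
Tet2: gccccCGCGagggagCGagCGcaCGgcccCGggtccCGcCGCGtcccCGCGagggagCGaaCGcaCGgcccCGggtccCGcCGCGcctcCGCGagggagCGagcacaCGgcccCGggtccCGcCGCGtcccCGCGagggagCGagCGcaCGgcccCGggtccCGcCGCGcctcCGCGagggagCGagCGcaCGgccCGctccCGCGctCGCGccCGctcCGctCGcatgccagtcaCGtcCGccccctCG
Tet3: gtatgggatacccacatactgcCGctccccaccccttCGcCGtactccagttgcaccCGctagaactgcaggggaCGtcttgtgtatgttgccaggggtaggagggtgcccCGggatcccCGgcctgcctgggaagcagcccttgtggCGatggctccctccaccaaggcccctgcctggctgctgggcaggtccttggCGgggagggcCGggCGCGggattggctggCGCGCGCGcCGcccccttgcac
Rnf2: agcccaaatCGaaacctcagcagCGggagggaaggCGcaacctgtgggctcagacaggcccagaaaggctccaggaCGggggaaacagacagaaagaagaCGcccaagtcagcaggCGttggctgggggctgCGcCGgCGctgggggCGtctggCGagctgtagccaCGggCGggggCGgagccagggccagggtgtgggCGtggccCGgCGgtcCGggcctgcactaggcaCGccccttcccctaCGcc
Ring1: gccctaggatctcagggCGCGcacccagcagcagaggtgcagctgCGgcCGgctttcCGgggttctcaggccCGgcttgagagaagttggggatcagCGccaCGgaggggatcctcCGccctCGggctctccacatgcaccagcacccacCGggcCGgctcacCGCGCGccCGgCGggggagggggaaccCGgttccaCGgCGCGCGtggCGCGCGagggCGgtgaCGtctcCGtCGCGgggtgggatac
The number of CpG in these 250 bases was 15 for Tet1, 51 for Tet2, 17 for Tet3, 20 for Rnf2 and 30 for Ring1. Over the full table windows of 300 bases, which run from 250 before to 50 after a start, the 52 windows of 36 members had a median of 23.5 CpG and the 32851 windows of all genes a median of 7. The motif bound by E2F factors at replication genes (TTCCCGC or TTGGCGC on either strand) was found in 9 of the 52 windows or 17.3%, against 6.81% of all windows. It was in 3 of 16 windows of members higher in KO cells, in 0 of 10 windows of members lower, and in 6 of 26 windows of members that did not pass the test. It was in none of the 5 promoters printed. Both forms of the motif hold a CpG, and no share was computed for other windows as rich in CpG as those of the members. No promoter of the remaining measured members was in the table.

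Of the 41 members, 11 rose and 9 fell in KO cells, and 21 did not pass the test (limma over all genes, adjusted p under 0.05). In all genes 33.4% were called at this threshold, 18.4% higher and 15% lower. The members lay high on the array scale, however, with 40 of 41 above the median gene mean of 6.39, and among the genes above that mean, fitted alone, 55.1% were called (31% higher, 24.1% lower). In the fit over all genes, 48.8% of the members were called, beside 53.1% of the genes above the median mean. In the fit of those genes alone, 12 members were higher and 9 lower. The median log2 fold change was 0.06 over the members and 0.02 over all genes. Of the 20 calls, 7 showed a log2 change of at least 0.5 in size, where 14.8% of all genes and 24.6% of those above the median mean met both thresholds, and Tet1 and Rnf2 passed a fold-change of 2, where 5.3% of all genes did. Rnf2 did so at the margin, with a log2 fold change of -0.99 without WT replicate 2, -0.97 without WT replicate 3, -0.89 without KO replicate 2 and -0.96 after median centring. With each chromosome centred, Rnf2 was at -0.71. The methods' own test, fitted gene by gene without moderation of the variance (hereafter the unmoderated test), called 23.6% of all genes and, of the members, 8 higher and 7 lower. The WT and KO arrays did not overlap for 25 of 41 members or 61%, as for 44.8% of all genes and 63% of those above the median mean. A value of a bulk array does not tell fewer cells with a transcript from less transcript per cell.

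**Figure D1:**
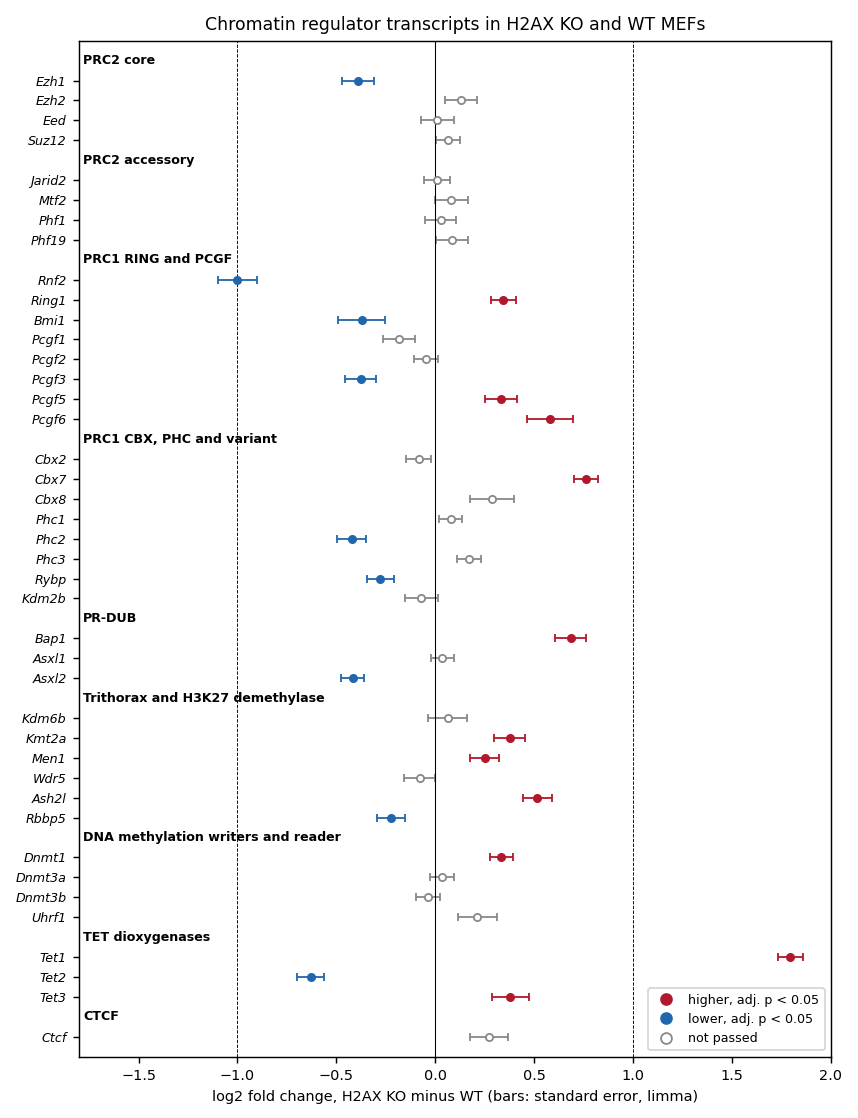
Log2 fold change of H2AX KO minus WT MEFs (x axis) for the 41 measured members grouped by role, as points with the standard error from limma. Filled points passed an adjusted p under 0.05 (red higher, blue lower), open points did not, and dashed lines mark a fold-change of 2. Tet1, up 3.47-fold, and Rnf2, down 2.00-fold, lie farthest from 0, and the PRC2 genes other than Ezh1 lie close to it.

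All 3 TET genes passed the test, as did 53.1% of genes above the median mean. The TET genes did not move together: Tet1 and Tet3 were higher and Tet2 was lower in KO cells. Tet1, which carries a CXXC domain that binds unmethylated CpG, had log2 values of 7.74, 7.75 and 7.64 on the WT arrays and of 9.47, 9.55 and 9.49 on the KO arrays. Each KO array lay above each WT array by far more than the spread within a genotype. The log2 fold change was 1.80 (limma: standard error, SE, 0.06, adjusted p = 2.4e-08), or 3.47-fold. The other 2 probe sets that carry the Tet1 symbol gave 1.79 (adjusted p = 2.9e-06 over all probe sets) and 2.04 (adjusted p = 5.6e-05). So all 3 probe sets of Tet1 rose.

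Tet2, whose ancestral CXXC domain is encoded by a separate gene, had log2 values of 7.92, 7.93 and 7.87 on the WT arrays and of 7.33, 7.16 and 7.33 on the KO arrays. The genotypes did not overlap, with a log2 fold change of -0.63 (limma: SE 0.07, adjusted p = 7.1e-05). Tet3, the TET enzyme known from the zygote, had values of 8.17 to 8.42 on the WT arrays and of 8.55 to 8.81 on the KO arrays and rose by 0.38 (limma: SE 0.09, adjusted p = 0.0095). It did not pass the unmoderated test (adjusted p = 0.087), and its second probe set showed a log2 change of 0.18 (adjusted p = 0.115 over all probe sets). Within each array, the log2 ratio of Tet1 to Tet2 probe sets moved from -0.20 ± 0.03 (SD, n = 3) in WT to 2.23 ± 0.14 (SD, n = 3) in KO cells. Probe sets differ in brightness, so that the ratio itself does not say which transcript was more abundant, and only its shift of 2.42 is a measurement.

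**Figure D2:**
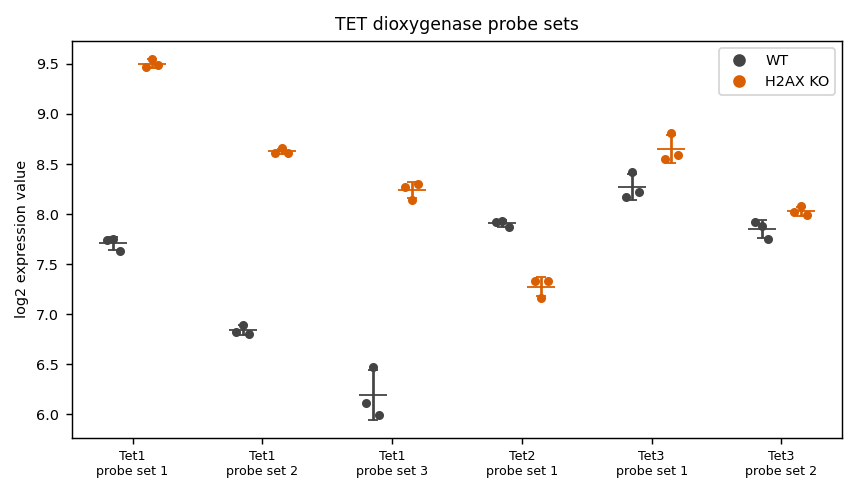
Log2 expression values (y axis) of every probe set that carries the symbol Tet1, Tet2 or Tet3, ordered within each gene by WT mean. Dots are arrays, horizontal bars are means and vertical bars are SD (n = 3). The 3 Tet1 probe sets are higher on all KO arrays, Tet2 is lower, and the second Tet3 probe set, at 7.75 to 7.92 in WT and 7.99 to 8.08 in KO cells, is separated by little.

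Among the enzymes that write DNA methylation, only the maintenance methyltransferase passed limma without centring. With Uhrf1 counted, that was 1 of 4 genes, or 25% called against 53.1% of genes above the median mean. With each chromosome centred 2 were higher, Dnmt3a at 0.29 (limma: adjusted p = 0.0050) and Dnmt1 at 0.24 (adjusted p = 0.010). Dnmt1, which copies methylation onto new strands after replication, had log2 values of 9.94, 9.97 and 10.03 in WT and of 10.32, 10.28 and 10.34 in KO cells. It rose by 0.33 (limma: SE 0.06, adjusted p = 0.0018), a modest shift without overlap of the arrays. Uhrf1, which recruits Dnmt1 to replicated DNA, showed a log2 change of 0.21 (95% interval -0.01 to 0.43, adjusted p = 0.13), or 0.10 without WT replicate 1. The de novo enzymes showed a log2 change of 0.03 (95% interval -0.10 to 0.17) for Dnmt3a and of -0.04 (95% interval -0.17 to 0.10) for Dnmt3b. Dnmt3b, at a mean of 5.61, was the one member below the median of gene means, where folds are compressed.

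In the PRC2 core, 1 of 4 genes passed the test, or 25% against 53.1% of genes above the median mean. Ezh1, the methyltransferase of resting and differentiated cells, had log2 values of 8.17, 8.13 and 8.23 on the WT arrays and of 7.83, 7.63 and 7.91 on the KO arrays. It fell by 0.39 in log2 value (limma: SE 0.08, adjusted p = 0.0041), with no overlap. Ezh2, the methyltransferase of dividing cells, showed a log2 change of 0.13 (95% interval -0.05 to 0.31, adjusted p = 0.28). The scaffold Suz12 was at 0.07 (95% interval -0.07 to 0.20) and Eed, which reads the mark, at 0.01 (95% interval -0.18 to 0.20). The 4 accessory subunits Jarid2, Mtf2, Phf1 and Phf19, which guide PRC2 to DNA, showed log2 changes between 0.01 and 0.08, and none passed limma (0 also at p under 0.05 before adjustment and by the unmoderated test). The WT and KO arrays overlapped for each of them. With each chromosome centred, however, Phf19 (0.23, limma: adjusted p = 0.049) and Ezh2 (0.29, adjusted p = 0.024) passed as higher, and Ezh1 stayed lower.

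Of the 8 PRC1 catalytic and PCGF genes, 3 were higher and 3 lower, or 75% called against 53.1% of genes above the median mean, and in 7 of 8 the WT and KO arrays did not overlap, or 87.5% against 63%. The unmoderated test called 1 higher and 2 lower, and so did limma with each chromosome centred. Rnf2 (RING1B), the main H2A ubiquitin ligase of PRC1, had log2 values of 9.94, 10.04 and 10.07 on the WT arrays and of 9.19, 8.80 and 9.05 on the KO arrays. The KO arrays were all lower, and they were further apart from each other than the WT arrays, with the lowest value again on KO replicate 2. Rnf2 fell by 1.00 in log2 value (limma: SE 0.10, adjusted p = 3.0e-05), or 2.00-fold. Ring1 (RING1A), its paralog, went the other way, from 7.22 to 7.27 on the WT arrays to 7.51 to 7.64 on the KO arrays, and rose by 0.34 (limma: SE 0.06, adjusted p = 0.0021).

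The PCGF proteins set which form of PRC1 a RING protein enters. Bmi1 (PCGF4), of canonical PRC1, fell by 0.37 (limma: SE 0.12, adjusted p = 0.034). Its KO values were 8.48 on replicate 2, the array that lay low for most genes, and 8.91 and 8.89 on the others. Without KO replicate 2 the log2 fold change was -0.23 (adjusted p = 0.052), and the call was also lost without WT replicate 2 or 3 (adjusted p = 0.11 and 0.12) and in the unmoderated test (adjusted p = 0.19). Its paralog Pcgf2 (MEL18) showed a log2 change of -0.05 (95% interval -0.18 to 0.09). Of the pair that shares 1 variant complex, Pcgf3 fell by 0.38 (limma: SE 0.08, adjusted p = 0.0046) and Pcgf5 rose by 0.33 (limma: SE 0.08, adjusted p = 0.0099). Pcgf6, of the variant PRC1 that silences germline genes, had log2 values of 7.94, 8.24 and 8.28 in WT and of 8.91, 8.52 and 8.77 in KO cells, a rise of 0.58 (limma: SE 0.12, adjusted p = 0.0033). Pcgf1, of the Kdm2b complex, showed a log2 change of -0.18 and did not pass (adjusted p = 0.12). Pcgf5 and Pcgf6 did not pass the unmoderated test, each with an adjusted p of 0.072.

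Of the other PRC1 subunits, Cbx7 stood apart. Cbx7, a chromodomain reader of H3 lysine 27 methylation, had log2 values of 6.07, 6.17 and 6.19 on the WT arrays and of 6.87, 6.94 and 6.91 on the KO arrays. The arrays were tightly grouped, and the gene rose by 0.76 (limma: SE 0.06, adjusted p = 9.1e-06). It lay low in WT cells, where folds are understated. The other readers, Cbx2 at a log2 change of -0.08 (adjusted p = 0.37) and Cbx8 at 0.29 (adjusted p = 0.074), did not pass. Cbx8 was at 0.16 without WT replicate 1 (adjusted p = 0.19) and passed without KO replicate 2 (0.34, adjusted p = 0.044) and after quantile normalization (adjusted p = 0.046). Of the Polyhomeotic proteins, which polymerize and compact PRC1 chromatin, Phc2 fell by 0.42 (limma: SE 0.07, adjusted p = 0.0016), while Phc1 was at 0.08 (adjusted p = 0.36) and Phc3 at 0.17 (adjusted p = 0.058). Phc3 passed the unmoderated test (adjusted p = 0.039) and limma after median centring (adjusted p = 0.022). Rybp, which takes the place of a CBX protein in variant PRC1, fell by 0.28 (adjusted p = 0.011), and its second probe set gave -0.38 (adjusted p = 0.032 over all probe sets). Kdm2b, which brings variant PRC1 to CpG islands, showed a log2 change of -0.07 (95% interval -0.26 to 0.11).

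**Figure D3:**
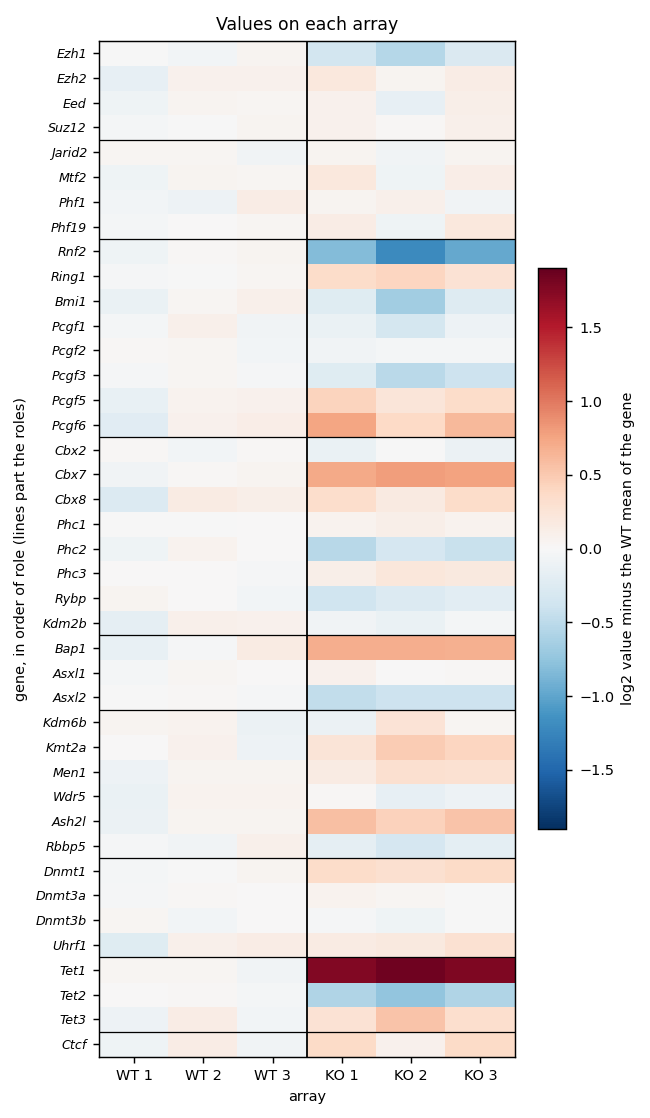
Log2 value of each of the 41 members (rows, in order of role) on each of the 6 arrays (columns), minus the mean of the gene's WT arrays. Red is above and blue below that mean. Tet1 is red on all KO arrays and Rnf2 blue on all of them, deepest on KO replicate 2, and the PRC2 accessory genes are pale throughout.

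The Polycomb deubiquitinase, which removes the ubiquitin that PRC1 adds, had 1 of 3 subunits higher and 1 lower. That was 66.7% called, against 53.1% of genes above the median mean. Bap1, its catalytic subunit, had log2 values of 8.79, 8.91 and 9.09 in WT and of 9.62, 9.62 and 9.61 in KO cells. The KO arrays were nearly equal and all above WT, with a rise of 0.68 (limma: SE 0.08, adjusted p = 0.00011). Of its alternative partners, Asxl2 fell by 0.42 (limma: SE 0.06, adjusted p = 0.00040), and Asxl1 showed a log2 change of 0.04 (95% interval -0.10 to 0.17).

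On the trithorax side, 3 of 6 genes were higher and 1 was lower, or 66.7% called against 53.1% of genes above the median mean. The unmoderated test called 2 higher and 0 lower, and limma with each chromosome centred 1 higher and 0 lower. Ash2l, a subunit shared by the H3 lysine 4 methyltransferase complexes, had log2 values of 9.58, 9.74 and 9.75 in WT and of 10.26, 10.13 and 10.23 in KO cells, and rose by 0.52 (limma: SE 0.07, adjusted p = 0.00035). Kmt2a (Mll), the methyltransferase that maintains Hox expression, rose by 0.38 (limma: SE 0.08, adjusted p = 0.0047). Its partner Men1 (menin) rose by 0.25 (limma: SE 0.07, adjusted p = 0.025). Rbbp5, like Ash2l a shared core subunit, fell by 0.22 (limma: SE 0.07, adjusted p = 0.038), and the third core subunit Wdr5 showed a log2 change of -0.08 (95% interval -0.25 to 0.10). Neither Men1 nor Rbbp5 passed the unmoderated test (adjusted p = 0.083 and 0.095). Men1 was lost without WT replicate 1, KO replicate 2 or KO replicate 3 (adjusted p = 0.080, 0.057 and 0.099), and Rbbp5 without WT replicate 1 or 3 or KO replicate 2 or 3 (adjusted p = 0.068, 0.13, 0.096 and 0.078). Kdm6b, a demethylase that removes the PRC2 mark, was at 0.06 (95% interval -0.16 to 0.29). Ctcf, which anchors chromatin loops, showed a log2 change of 0.27 and did not pass (limma: 95% interval 0.05 to 0.48, adjusted p = 0.056). It passed in 5 of the alternatives, among them without KO replicate 2 (0.36, adjusted p = 0.0066) or WT replicate 2 (0.34, adjusted p = 0.038). With each chromosome centred, Ctcf was at -0.10 (limma: adjusted p = 0.50).

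Paralogs were compared directly as the log2 ratio of their probe sets on each array, which does not change when a whole array is scaled. Of 15 pairs, 12 had ratios that did not overlap between the genotypes. Beside this, 63% of single genes above the median mean did not overlap, and no share was computed for pairs of other genes. Some genes are in several pairs, so that the pairs are not separate observations. The shift from WT to KO was 1.34 for Ring1 over Rnf2, -0.52 for Ezh1 over Ezh2, -0.71 for Pcgf3 over Pcgf5, -0.76 for Pcgf1 over Pcgf6, 0.48 for Cbx7 over Cbx8, -0.59 for Phc2 over Phc3 and 0.45 for Asxl1 over Asxl2. It was 0.50 for Phc1 over Phc2 and -0.33 for Bmi1 over Pcgf2, which was -0.18 without KO replicate 2. The TET pairs shifted by 2.42 for Tet1 over Tet2, by 1.42 for Tet1 over Tet3 and by -1.01 for Tet2 over Tet3. The ratios that overlapped were those of Mtf2 to Phf19 at -0.004, of Mtf2 to Phf1 at 0.05 and of Dnmt3a to Dnmt3b at 0.07. With 3 arrays in each genotype, the smallest p of an exact two-sided permutation test is 0.1, which the 12 pairs reached, with 0.125 after adjustment over the 15 pairs, so that none could pass 0.05.

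**Figure D4:**
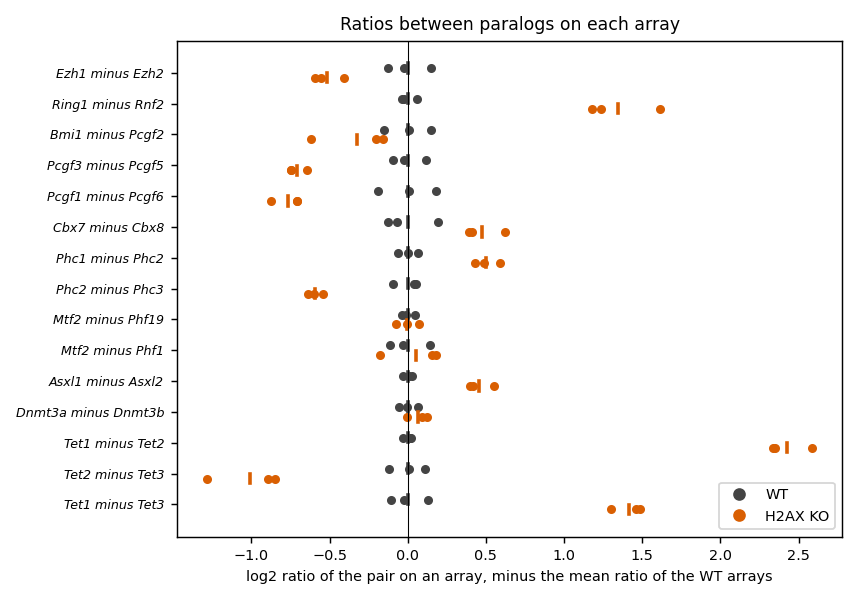
Log2 ratio of 2 paralogs on each array, minus the mean ratio of the WT arrays (x axis), for 15 pairs (y axis). Dots are arrays and short bars are the means of each genotype. Tet1 minus Tet2 lies near 2.42 on the KO arrays and Ring1 minus Rnf2 near 1.34, while the ratios of Mtf2 to Phf19 and Phf1 overlap.

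Calls often shared the direction of the chromosome on which a gene lies. Among genes above the median mean, the median log2 fold change was 0.42 for the 573 genes of chromosome 8, 0.26 for chromosome 17, 0.26 for chromosome 19, -0.20 for chromosome 12 and -0.25 for the 553 genes of chromosome 1. On 19 of 20 chromosomes the arrays' chromosome medians, taken relative to all genes, did not overlap between genotypes. Of the 20 called members, 14 or 70% had the sign of their chromosome's median, beside 71.4% of the 5291 called genes above the median mean. Rnf2 and Rbbp5 lie on chromosome 1, Asxl2 on chromosome 12, Ash2l and Ctcf on chromosome 8, Ring1 on chromosome 17, and Men1, Pcgf5 and Pcgf6 on chromosome 19. Of the members that did not pass, Dnmt3a on chromosome 12 was at 0.03, Phf1 on chromosome 17 at 0.03 and Uhrf1 on chromosome 17 at 0.21. Each call was therefore recomputed with every array centred on the median of each chromosome, an alternative chosen after seeing the data. Only genes above the median mean were centred and the others, Dnmt3b among them, kept their deposited values, and 31% of all genes were then called.

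With each chromosome centred, 12 of the 20 calls passed in the same direction. Tet1 was then at 1.73, Tet2 at -0.68, Tet3 at 0.54, Cbx7 at 0.84, Rnf2 at -0.71, Bap1 at 0.56, Pcgf3 at -0.46, Ezh1 at -0.43, Phc2 at -0.40, Pcgf6 at 0.37, Kmt2a at 0.29 and Dnmt1 at 0.24 on the log2 scale. The other 8 did not pass: Ring1 was at 0.13 (limma: adjusted p = 0.14), Ash2l at 0.15 (adjusted p = 0.15), Asxl2 at -0.16 (adjusted p = 0.080), Bmi1 at -0.23 (adjusted p = 0.17), Rybp at -0.12 (adjusted p = 0.22), Pcgf5 at 0.12 (adjusted p = 0.32), Men1 at 0.04 (adjusted p = 0.75) and Rbbp5 at 0.07 (adjusted p = 0.49). Ctcf was at -0.10 (adjusted p = 0.50) and Uhrf1 at 0.0002 (adjusted p = 0.999). In turn 5 members passed only when centred, among them Dnmt3a at 0.29 (adjusted p = 0.0050) and Ezh2 at 0.29 (adjusted p = 0.024). The others were Phc1 at 0.23 (adjusted p = 0.012), Phf19 at 0.23 (adjusted p = 0.049) and Asxl1 at 0.18 (adjusted p = 0.044).

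The paralog ratios were recomputed in the same way, and 13 of 15 pairs did not overlap. Ring1 over Rnf2, whose chromosomes shifted in opposite directions, moved from 1.34 to 0.84, Pcgf1 over Pcgf6 from -0.76 to -0.39 and Bmi1 over Pcgf2 from -0.33 to -0.14, with overlap. Mtf2 over Phf19 moved to -0.23 and Dnmt3a over Dnmt3b, of which only Dnmt3a was centred, to 0.32, both without overlap. Tet1 over Tet2 stayed at 2.42. Copy number was not measured, and whether it differed between the genotypes was not tested.

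**Figure D5:**
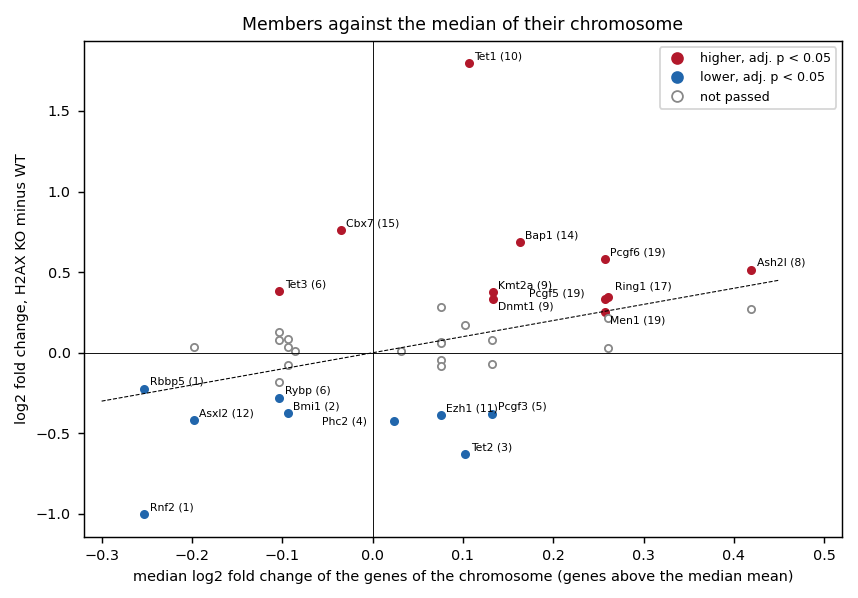
Log2 fold change of the 40 members above the median gene mean (y axis) against the median log2 fold change of such genes on the same chromosome (x axis), with the chromosome in brackets for called members. On the dashed line a member equals its chromosome. Men1 and Rbbp5 lie close to the line, and Tet1, Cbx7, Bap1, Tet2 and Rnf2 lie far from it.

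Other genes of these pathways were read beside the 53.1% of genes above the median mean that were called in the fit over all genes. Of 35 other measured Polycomb-associated genes, 12 were higher and 8 lower, or 57.1% in all, with a median log2 fold change of 0.02 (7 higher and 6 lower in the unmoderated test). Mbd6, a partner of the deubiquitinase, fell by 1.62 in log2 value (limma: adjusted p = 3.8e-07), and E2f6, the DNA-binding partner of Pcgf6, fell by 1.27 (adjusted p = 0.00022). Asxl3, the third Asxl gene, rose by 1.87 (adjusted p = 2.4e-07), from 5.29 to 7.17 in log2 value, and Mga, another partner of Pcgf6, by 0.49 (adjusted p = 0.00039). Of 33 other genes of the trithorax-type and demethylase complexes, 13 were higher and 4 lower, or 51.5% in all, with a median of 0.20. The count higher fell to 8 without WT replicate 3, to 7 without KO replicate 3 and to 8 in the unmoderated test or with a replicate block. Uty, the Y-linked paralog of the H3 lysine 27 demethylase Kdm6a, went from a log2 value of 8.08 ± 0.11 to 4.35 ± 0.07 (SD, n = 3), whereas Kdm6a showed a log2 change of -0.10 (adjusted p = 0.57, named after its value was seen). Of 27 subunits of the SWI/SNF remodeller, which counteracts Polycomb, 10 were higher and 0 lower by limma, or 37% in all, at a median of 0.16. The count lower was 2 at p under 0.05 before adjustment and 0 by the unmoderated test. With each chromosome centred, 4 were higher and 1 lower. By limma without centring, the count lower was 1 without WT replicate 1, WT replicate 3 or KO replicate 2. Phf10 rose by 1.25 (adjusted p = 4.0e-07).

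Of 20 other DNA methylation genes, 8 were higher and 3 lower, or 55% called against 53.1% of genes above the median mean, with a median of 0.04. With each chromosome centred 6 were higher and 1 lower. Hells, a remodeller needed for methylation, rose by 0.75 (limma: adjusted p = 0.00018), and Cxxc5, of the CXXC family that binds CpG, fell by 1.98 (adjusted p = 3.4e-08). Of 11 genes of cohesin and its loaders, the partners of Ctcf, 7 were higher and 0 lower by limma, or 63.6% in all, with a median of 0.42. The count lower was also 0 at p under 0.05 before adjustment and by the unmoderated test. Smc3 rose by 0.68 (adjusted p = 0.00086) and Mau2 by 0.65 (adjusted p = 2.0e-05). With each chromosome centred the count higher was 7, with Smc3 at 0.47 and Mau2, on chromosome 8, at 0.29.

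Dnmt1, Uhrf1 and Ezh2 follow the cell cycle, and genes of replication and mitosis were therefore read beside them. Of 29 measured, all above the median mean, 5 rose, 4 fell and 20 did not pass, the median log2 change being 0.06. The share called was 31%, against 53.1% of all genes above the median mean. Cdt1, on chromosome 8, rose by 0.77 (limma: adjusted p = 1.8e-05), or by 0.40 with its chromosome centred, and Rrm2 fell by 0.79 (adjusted p = 0.00039). Mki67 and Top2a, named after their values were seen, showed log2 changes of 0.07 (adjusted p = 0.43) and 0.01 (adjusted p = 0.95). Of 10 RB and E2F genes, 5 were higher and 2 lower, or 70% called against the same 53.1%. The count higher was 3 without WT replicate 1, WT replicate 2 or KO replicate 3, and in the unmoderated test. Among those lower was E2f8, a repressor of replication genes, which fell by 1.04 (limma: adjusted p = 9.5e-07).

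Possible readouts were taken from lists of regulators that Polycomb is known to silence and of germline genes held off by DNA methylation. Of 33 measured Polycomb-silenced regulators outside the Hox clusters, 9 rose, 7 fell and 17 did not pass, at a median log2 fold change of 0.07. With 16 of them above the median mean, their share of 48.5% lay between the 33.4% called of all genes and the 53.1% of genes above that mean. Six2 rose by 3.39 (limma: adjusted p = 4.6e-09) and Alx1 by 3.11 (adjusted p = 1.3e-08), and Gata6 fell by 1.76 (adjusted p = 1.5e-07) and Meis1 by 1.17 (adjusted p = 2.7e-06). Cdkn2a, of the senescence locus, had a log2 value of 8.21 ± 0.13 in WT and 10.21 ± 0.12 in KO cells (SD, n = 3). It rose by 2.00 (limma: adjusted p = 9.6e-08), and its neighbour Cdkn2b fell by 0.47 (adjusted p = 0.0012). Both were named after their values were seen, and a link to any member was not tested. Germline genes lay low on the array scale, with 1 of 19 above the median gene mean. By limma 2 were higher and 0 lower, or 10.5% called against 33.4% of all genes. That background takes in the genes above the median mean, of which 53.1% were called. No share was computed for genes below it, so that 10.5% cannot be read as low for genes at this level. The count lower was also 0 at p under 0.05 before adjustment and by the unmoderated test. Tdrkh, of the piRNA pathway, rose by 1.77 (adjusted p = 2.8e-06), from a log2 value of 6.08 to 7.85, and Sycp1, of the synaptonemal complex, by 0.28 (adjusted p = 0.013), from 3.68 to 3.97.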

How the data were processed

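RNA of WT and H2AX KO MEFs was hybridised to Affymetrix mouse Gene ST arrays, 3 for each genotype. Per the labels and methods, the authors used Affymetrix Expression Console and Partek 6.6 and deposited 1 log2 value per probe set. How background was corrected and probes were summarized is not given in the sources used here. The methods name a later array version than the one whose probe set identifiers the table carries.

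Of 35556 probe sets, 21789 carried 1 gene symbol in the platform annotation, 1621 several and 12146 were not listed. After matching to RefSeq, the probe set with the highest mean stood for each of 19938 genes. Array medians lay between 6.06 and 6.12. WT and KO were compared on the deposited log2 values with limma 3.58.1 (R 4.3.3; lmFit, eBayes, Benjamini-Hochberg over all genes, threshold 0.05), checked on simulated data. Only 3 arrays a group limit the precision. The alternatives were the one-way ANOVA of the methods, a trended robust prior, quantile normalization, median centring, a filter on the lower 50% of genes, the mean of probe sets, a replicate block, leaving out each array, a fold-change over 1.5 and, chosen after seeing the data, centring of genes above the median mean on each chromosome. Arrays with the same number did not deviate together (r = -0.25, -0.15 and 0.07). Paralog ratios were compared by exact permutation (scipy 1.17.1). Members called with a log2 fold change of at least 0.5 in size are given on every array, and other lists by at most the 2 largest rises and falls. The members and lists were chosen with earlier results of these data known.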

Additional observations from a re-analysis of the deposited data

How the results depend on the processing

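The members called numbered 11 higher and 9 lower. Over the alternatives other than the fold threshold and the chromosome centring they ranged from 8 to 13 higher and from 7 to 9 lower, and leaving out each array gave 10 to 12 higher and 7 to 9 lower. Asking for a fold-change over 1.5 left 3 higher and 2 lower, by its own construction. Centring on each chromosome, chosen after seeing the data, gave 12 higher and 5 lower. Of the 20 called members, 17 passed in every fit that left out 1 array and 10 in every setting other than the fold threshold. The replicate block gave 11 higher and 8 lower, losing Rbbp5 (adjusted p = 0.057 from limma). In the other lists it lowered several counts, most for the other trithorax-type and demethylase genes, from 13 to 8 higher. No source used here says whether WT and KO arrays with the same number were handled together. With each chromosome centred, the log2 fold change turned for Phf1 (-0.186), Wdr5 (0.0661), Rbbp5 (0.0726), Ctcf (-0.0996) and Top2a (-0.0308). Quantile normalization turned Jarid2 (-0.00200) and median centring turned Dnmt3b (0.00324). Leaving out 1 array turned values near 0, with ranges of -0.0404 to 0.0971 for Eed, -0.0274 to 0.0483 for Jarid2, -0.0202 to 0.0994 for Phf1, -0.0385 to 0.152 for Kdm6b, -0.206 to 0.0314 for Kdm6a, -0.0413 to 0.0565 for Top2a, -0.0420 to 0.0329 for the ratio of Mtf2 to Phf19 and -0.00915 to 0.169 for that of Mtf2 to Phf1. The cause was not tested for these. Signals near the array floor, as for Dnmt3b and the germline genes, limit what a fold can show.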
